A study of Mus musculus with 36 samples.

Results

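The 10 genes described here are negative regulators and transcription factors that are switched on by fibroblast growth factor (Fgf) signaling through the kinase ERK. They were the rows of the 3 deposited expression tables whose Ensembl identifiers carry the symbols *Spry1*, *Spry2*, *Spry4*, *Spred1*, *Spred2*, *Dusp4*, *Dusp6*, *Etv1*, *Etv4* and *Etv5*. All 10 were found in each table, out of 30125 genes in any of them. The study used RNA-seq of cultured mouse nephron progenitor cells (NPCs), the self-renewing mesenchyme from which nephrons form, to ask how they respond to different levels of canonical Wnt signaling. CHIR99021 (CHIR), an inhibitor of GSK3β that stabilizes β-catenin, was given at no (0 µM), low (1.25 µM) or high (5 µM) dose, and β-catenin or the Tcf/Lef factors it binds were removed in further cultures. There were 36 libraries.

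When an Fgf ligand binds its receptor, the adaptor Frs2 and the Ras, Raf and Mek proteins relay the signal to ERK. ERK in turn raises the transcription of its own inhibitors. The Sprouty (Spry) and Spred proteins act upstream, on the activation of Ras and Raf, and the phosphatases Dusp6, in the cytoplasm, and Dusp4, in the nucleus, remove the activating phosphates from ERK. *Etv1*, *Etv4* and *Etv5* encode the Pea3 subfamily of Ets transcription factors and are widely used as readouts of Fgf signaling. In the developing kidney Fgf9 and Fgf20 maintain NPCs, while *Spry1*, *Etv4* and *Etv5* are also known for their roles in the ureteric bud, downstream of the receptor Ret.

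Wild-type NPCs at 0, 1.25 and 5 µM CHIR had 3 libraries each. NPCs with the conditional allele β-catenin c/c were transfected with Cre mRNA (Cre) or without it (no Cre), with 2 libraries each in low and high CHIR. NPCs with a Cas9-eGFP allele, which carry Cas9 in every cell, received sgRNA against *Ctnnb1*, the gene of β-catenin, or against GFP as the control, again with 2 libraries each in both doses. A further set of Cas9-eGFP NPCs received sgRNA against GFP (Tcf control, 3 libraries per dose) or against *Tcf7*, *Tcf7l1*, *Tcf7l2* and *Lef1* together (quadruple knockout, QKO, 2 libraries in low CHIR and 3 in high CHIR), with a longer period between transfection and the change of CHIR than in the β-catenin sets. All NPCs came from E16.5 kidneys by depletion of other cell types with antibodies, an isolation pools kidneys of several embryos, and all cultures began in low CHIR. Transfected cells were sorted for a co-transfected mCherry reporter and were not cloned. Nothing in the labels says which libraries come from separate isolations, so p-values measure the spread between these libraries, which may be partly technical.

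Each table was normalized on its own by the authors, so levels are compared within a table. Reads on genes ranged from 13651129 to 76071568 in the wild-type table, from 14537850 to 27838106 in the β-catenin table and from 13089780 to 20152719 in the Tcf/Lef table. *Six2*, which marks self-renewing NPCs, had 2716 to 3072 normalized counts in wild-type NPCs in low CHIR and 60.5 to 79.6 in high CHIR. *Ctnnb1* had 1652 and 1039.6 normalized counts with its sgRNA against 2521 and 3397 with GFP sgRNA in low CHIR, and 1629.9 and 1270.1 against 2632 and 2701 in high CHIR. With Cre it had 3085 and 2451 against 3880.1 and 3097 in low CHIR and 2254 and 2583 against 2423 and 2207 in high CHIR. The count covers the whole gene while Cre removes a part, so it does not check that deletion. By staining, the paper reports that membrane β-catenin in transfected cells was reduced in part by both methods. In QKO in low CHIR *Tcf7* had 66.2 and 97.7 against 220.1, 220.1 and 141 and *Tcf7l1* 827 and 1286 against 2225, 1774 and 1736, while *Tcf7l2* had 1575 and 1695 against 1622, 1949 and 1873 and *Lef1* 87.1 and 21.5 against 119.9, 25.7 and 19.9. In high CHIR *Lef1* had 255, 441 and 513 in QKO against 1504, 2743 and 1144 in the control and *Tcf7* 109.5, 179.7 and 127 against 534, 535 and 268. There *Tcf7l1* had 602, 539 and 736 against 612, 486 and 591 and *Tcf7l2* 999, 1616 and 1481 against 1263, 2233 and 1750.0, both with overlapping groups. These counts are of mRNA and do not measure protein. By staining, the paper reports loss of each of these proteins with its own guide, incomplete and smallest for Tcf7. One library stood apart: wild-type replicate 3 in high CHIR had 104 counts of *Lhx1*, an early nephron transcription factor, against 5949 and 6706 in replicates 1 and 2, and 11108 of *Wnt4* against 1315 and 1473. Results of high CHIR in wild-type NPCs are therefore also given without it for *Spry1*, *Spry4*, *Spred1*, *Dusp4*, *Dusp6*, *Etv1* and *Etv4*. Those of all other genes, including the markers and the rest of the pathway, are given with this library only and were not checked against it.

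In the GENCODE vM21 annotation of GRCm38, the Sprouty genes are *Spry1* (ENSMUSG00000037211, chromosome 3, 37639947 to 37644598, plus strand), *Spry2* (ENSMUSG00000022114, chromosome 14, 105891947 to 105896819, minus strand) and *Spry4* (ENSMUSG00000024427). *Spred1* (ENSMUSG00000027351, chromosome 2, 117121374 to 117182279, plus strand) and *Spred2* (ENSMUSG00000045671, chromosome 11, 19924375 to 20024026, plus strand) are their relatives. The phosphatase genes are *Dusp4* (ENSMUSG00000031530, chromosome 8, 34807297 to 34819894, plus strand) and *Dusp6* (ENSMUSG00000019960, chromosome 10, 99263231 to 99267489, plus strand). The Ets genes are *Etv1* (ENSMUSG00000004151, chromosome 12, 38779380 to 38870484, plus strand), *Etv4* (ENSMUSG00000017724, chromosome 11, 101769742 to 101785371, minus strand) and *Etv5* (ENSMUSG00000013089, chromosome 16, 22381309 to 22439719, minus strand). All are protein coding and were counted over their exons. *Spry1* overlaps the annotated gene *Gm42922* and *Spry4* overlaps *Gm27369* and *Gm27804*, each on the opposite strand, and whether the library kept strand is not stated in the sources used here. Promoter windows of RefSeq, 250 bases before to 50 after a transcript start on GRCm38.p6, were found for 7 of the 10 genes (9 windows, with 2 each for *Etv1* and *Etv5*). They were searched on both strands for GGAAGT, a core bound by Ets factors, and for TCAAAG, a core bound by Tcf/Lef factors, and these motifs do not overlap in letters. Among all 32851 windows of this length, 23.8% held the Ets core, 16% the Tcf/Lef core and 3.94% both. The first *Etv1* window held 1 of each, the second *Etv5* window held 2 Ets cores, the *Spred2* window held 1 Ets core, and neither core was found in the other 6 windows. A match is only a description of letters in this window.

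The windows of *Etv1* are shown because it is the gene that moved most, those of *Spry1* and *Spred1* because they also passed the test in wild-type NPCs, and that of *Dusp6* because it had the highest mean per kilobase of exon in wild-type NPCs in low CHIR and passed it in none of the comparisons fitted over whole tables without a replicate block. Each is written 5′ to 3′ on the strand of the gene, with the Ets and Tcf/Lef cores in capitals.
Etv1, first start, chr12:38779832-38780131, plus strand: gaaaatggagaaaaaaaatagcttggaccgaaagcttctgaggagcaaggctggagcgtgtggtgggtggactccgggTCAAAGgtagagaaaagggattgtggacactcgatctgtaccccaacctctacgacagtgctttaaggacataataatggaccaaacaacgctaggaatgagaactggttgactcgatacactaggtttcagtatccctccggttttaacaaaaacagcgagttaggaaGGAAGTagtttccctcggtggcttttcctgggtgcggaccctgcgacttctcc
Etv1, second start, chr12:38783461-38783760, plus strand: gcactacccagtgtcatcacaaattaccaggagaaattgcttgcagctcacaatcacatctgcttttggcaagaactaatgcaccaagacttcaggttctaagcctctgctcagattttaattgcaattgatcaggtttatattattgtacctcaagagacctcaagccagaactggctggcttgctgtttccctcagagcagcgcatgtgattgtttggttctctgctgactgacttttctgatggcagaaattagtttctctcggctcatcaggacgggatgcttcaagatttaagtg
Spry1, chr3:37639697-37639996, plus strand: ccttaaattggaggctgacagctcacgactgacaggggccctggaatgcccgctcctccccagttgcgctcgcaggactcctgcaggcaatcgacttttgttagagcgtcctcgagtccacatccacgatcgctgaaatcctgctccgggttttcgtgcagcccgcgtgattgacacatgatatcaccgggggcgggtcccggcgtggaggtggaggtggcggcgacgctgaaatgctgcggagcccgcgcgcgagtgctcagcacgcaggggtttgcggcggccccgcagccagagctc
Spred1, chr2:117120821-117121120, plus strand: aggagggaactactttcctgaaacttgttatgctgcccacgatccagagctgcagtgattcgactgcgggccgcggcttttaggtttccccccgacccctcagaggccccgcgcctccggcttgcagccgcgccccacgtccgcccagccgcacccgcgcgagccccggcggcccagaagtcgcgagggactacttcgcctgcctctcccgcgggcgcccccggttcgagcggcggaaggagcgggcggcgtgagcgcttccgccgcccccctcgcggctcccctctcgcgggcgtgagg
Dusp6, chr10:99262981-99263280, plus strand: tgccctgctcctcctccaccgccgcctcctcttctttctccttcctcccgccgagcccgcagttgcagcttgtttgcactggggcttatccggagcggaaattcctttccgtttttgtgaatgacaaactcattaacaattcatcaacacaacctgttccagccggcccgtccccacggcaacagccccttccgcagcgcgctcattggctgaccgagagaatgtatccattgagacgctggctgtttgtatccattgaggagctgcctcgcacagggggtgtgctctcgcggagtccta

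Levels in self-renewal conditions span a wide range. Per kilobase of exon, wild-type NPCs in low CHIR had the most *Dusp6*, at 2761 ± 882 normalized counts (SD, n = 3), followed by *Spry2* (1778 ± 525) and *Spry1* (1156 ± 146). *Etv4* (899.7 ± 120.2) and *Etv5* (877 ± 54.1) came next, then *Spry4* (394 ± 141), *Spred1* (248 ± 9.97), *Dusp4* (197 ± 63.9) and *Etv1* (171 ± 16.6). *Spred2* was lowest at 51 ± 0.694. The ranges of the libraries overlapped between these neighbours in the order: *Dusp6* and *Spry2*, *Etv4* and *Etv5*, *Spry4* and *Spred1*, *Spred1* and *Dusp4*, and *Dusp4* and *Etv1*. Thus *Etv1* was the least abundant Etv gene per length even where it was high.

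The first comparison asks what changes when wild-type NPCs move from low to high CHIR, the dose that induces differentiation in this culture. *Etv1* fell most, to 10.3% of its mean in low CHIR. *Spry1* and *Spred1* fell to 54.2% and 51.5%, and *Dusp4* rose 2.17-fold. A gene is called here if its log2 fold change, on the log2(normalized count + 1) scale, was at least 0.5 in size with a Benjamini-Hochberg adjusted p under 0.05 in limma over all genes tested. By that rule 4 of the 10 genes were called, 1 higher and 3 lower, where 10.4% of all 17411 genes tested were called. The median log2 fold change of the 10 was -0.42, against 0.00937 over all genes.

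**Figure D1:**
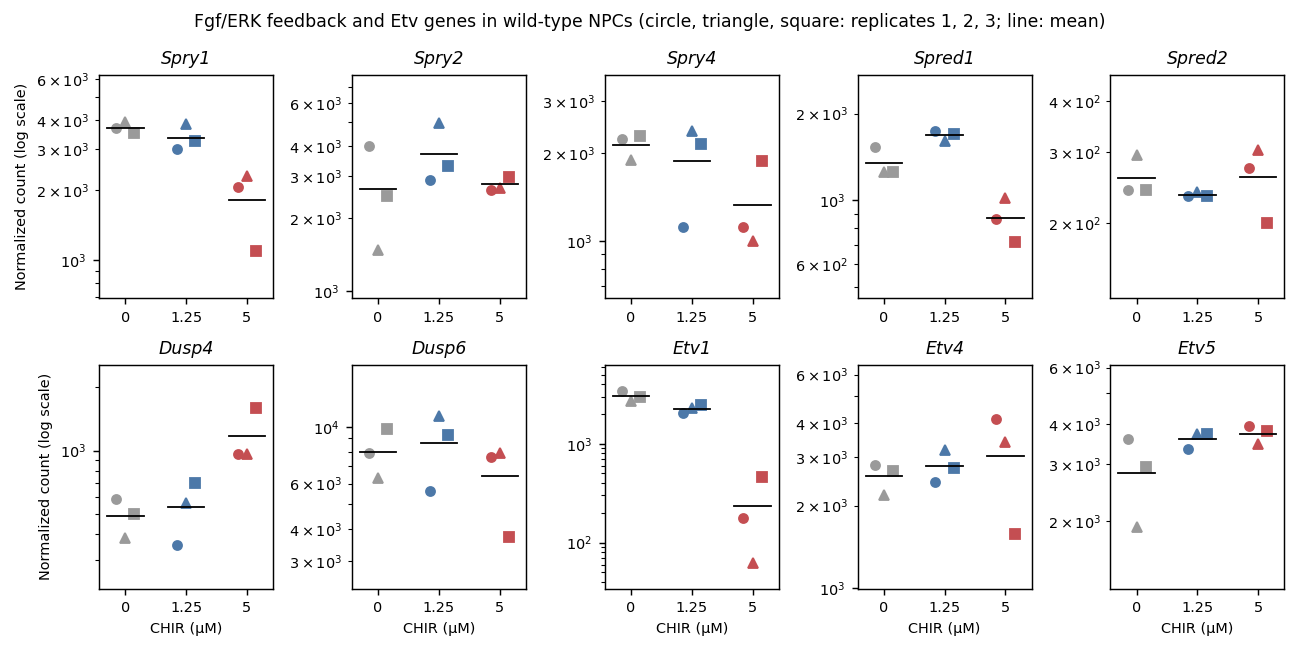
Normalized counts (log scale) of the 10 genes in wild-type NPCs by CHIR dose in µM, with 3 libraries per dose (circle, triangle and square for replicates 1, 2 and 3) and the group mean as a line. *Etv1* lies between 62.8 and 458 in high CHIR and at 2026 or more in the other doses, whereas *Etv5* lies in one range in low and high CHIR.

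Among the Sprouty genes, *Spry1* had 3004, 3826 and 3244 normalized counts in the 3 low CHIR libraries and 2073, 2292 and 1100.1 in high CHIR. The groups did not overlap, as in 30.8% of all genes tested, and replicate 3 in high CHIR was the lowest library. Its log2 fold change was -0.94 (SE 0.24, adjusted p = 0.0316, limma). Without that replicate it was -0.62 (adjusted p = 0.013), while leaving out any of the 3 low CHIR libraries ended the call (adjusted p = 0.0661, 0.114 and 0.0975 without replicates 1, 2 and 3), as did fitting the 2 doses alone (0.0829). *Spry2* had 2876, 4952 and 3302 counts in low CHIR and 2632, 2680.0 and 2982 in high CHIR, with overlapping groups (log2 fold change -0.39, SE 0.31, adjusted p = 0.503). *Spry4* had 1112, 2365 and 2141 in low CHIR and 1115, 995 and 1871 in high CHIR. Low CHIR replicate 1 lay within the high CHIR range, high CHIR replicate 3 was the highest of its group, and the difference was not called (log2 fold change -0.48, SE 0.30, adjusted p = 0.37). Without the latter it was -0.76 (adjusted p = 0.118).

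*Spred1* had 1741, 1608 and 1697 normalized counts in low CHIR and 863, 1022 and 717 in high CHIR. It had the smallest SE of the 3 genes that fell, with groups well apart (log2 fold change -0.97, SE 0.16, adjusted p = 0.00314), and it was called without each of the 6 libraries in turn. *Spred2*, at 236 ± 3.2 (SD, n = 3) in low CHIR and 259.6 ± 53.7 (SD, n = 3) in high CHIR, overlapped between doses (log2 fold change 0.12, SE 0.20, adjusted p = 0.77). Of the phosphatases, *Dusp4* had 355, 562 and 703 counts in low CHIR and 966, 963 and 1588 in high CHIR. Every high CHIR library was above every low CHIR library, a lack of overlap seen in 30.8% of all genes tested. Replicate 3 was the highest (log2 fold change 1.13, SE 0.29, adjusted p = 0.0315). The call ended without that replicate (0.89, adjusted p = 0.067), without low CHIR replicate 1 or 2 (0.106 and 0.0759), and with the 2 doses fitted alone (0.0646). *Dusp6* had 5611, 11012 and 9319 in low CHIR and 7609, 7916 and 3707 in high CHIR. Low CHIR replicate 1 and high CHIR replicate 3 were the lowest libraries, and the groups overlapped (log2 fold change -0.46, SE 0.32, adjusted p = 0.439), and without high CHIR replicate 3 the difference was -0.10 (adjusted p = 0.872).

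The 3 Etv genes behaved differently from each other. *Etv1* had 2026, 2324 and 2458 normalized counts in low CHIR and 179, 62.8 and 458 in high CHIR. The high CHIR libraries varied among themselves more than the low CHIR libraries, but all were far below them, and the mean was 9.72-fold lower (log2 fold change -3.70, SE 0.53, adjusted p = 0.00177). Without high CHIR replicate 3, the highest of them, the log2 fold change was -4.40 (adjusted p = 5.09e-05). *Etv4* had 2445, 3187 and 2745 counts in low CHIR and 4137, 3413 and 1572 in high CHIR. Replicates 1 and 2 in high CHIR were above all low CHIR libraries and replicate 3 below them, giving a difference near 0 (log2 fold change 0.02, SE 0.30, adjusted p = 0.978) with it and 0.44 (adjusted p = 0.12) without it. *Etv5* had 3342, 3726 and 3727 in low CHIR and 3941, 3466 and 3808 in high CHIR. These libraries lay in one range, and the 95% interval of its log2 fold change (-0.39 to 0.50) does not reach the size of the change in *Etv1*.

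Without CHIR, none of the 10 genes was called against low CHIR with limma, where 4.97% of all genes tested were called, and none was called with edgeR or DESeq2. None of the 10 had an unadjusted p under 0.05. *Etv1* had 3437, 2729.7 and 2993 normalized counts without CHIR, all above the low CHIR libraries (log2 fold change 0.43, 95% interval -0.76 to 1.61, adjusted p = 0.695). *Spred1* had 1529.9, 1254 and 1256, all below low CHIR (log2 fold change -0.33, SE 0.16, adjusted p = 0.248). *Spred2* was above low CHIR in every library. Groups did not overlap in 32.7% of all genes tested in this comparison. *Etv5* ranged from 1919 to 3592 and *Spry2* from 1487 to 4005, both wider than in the other doses. *Spry1* (3709.8, 3914 and 3498), *Spry4* (2222, 1885 and 2290.0), *Spred2* (242, 294 and 242), *Dusp4* (586, 382 and 500.4), *Dusp6* (7920.0, 6307 and 9776) and *Etv4* (2818, 2191 and 2666) differed from low CHIR by at most 0.26 on the log2 scale. Thus 4 of the 10 genes were called between low and high CHIR and none between no and low CHIR, at 3 libraries each.

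High against no CHIR shares the high CHIR libraries with the first comparison, so the values stand side by side and are not a second test. Of the 10 genes 4 were called, where 23.4% of all genes tested were: *Etv1* (-4.13, adjusted p = 0.000469), *Spry1* (-1.09, 0.00863), *Spred1* (-0.64, 0.0134) and *Dusp4* (1.24, 0.0111). Each kept its call without each library in turn. *Spry4* in high CHIR lay below all libraries without CHIR, a lack of overlap seen in 39.9% of all genes tested, but was not called (log2 fold change -0.74, SE 0.30, adjusted p = 0.101). Without high CHIR replicate 3 it was called at -1.01 (adjusted p = 0.0239), and so was *Etv4* at 0.56 (0.0289), while *Etv5* was called at 0.65 (0.0318) without replicate 1 of no CHIR, the deepest library.

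Markers of other cells moved with CHIR in the wild-type table. The summed normalized counts of 7 ureteric epithelium markers were 947 to 1229.9 in low and 2352 to 7396 in high CHIR, with 3 of 6 tested markers called higher (*Gata3*, *Hoxb7* and *Epcam*), and *Ret*, which defines ureteric tips, had at most 7.32 counts in any library. Stromal markers summed to 9835 to 15598 in low and 3117 to 10442 in high CHIR (1 of 6 called, lower). Among them *Foxd1* had at most 46.0 counts in any library, while *Col1a1* reached 18643. Endothelial markers summed to 216 to 562 in low and 85.1 to 824 in high CHIR (1 higher and 2 lower of 5, with *Cdh5* at most 15.8), and blood markers to 689.9 to 846 and 218 to 324 (1 of 3 called, lower, with *Ptprc* at most 23.7). Their part in the results for the 10 genes was not tested. In these bulk libraries, fewer cells of a type and less RNA per cell cannot be told apart.

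The dose step was repeated in 3 sets of control cells: no Cre, Cas9 with GFP sgRNA and Tcf control. In the fit without a replicate block *Etv1* and *Spry4* fell in all 3, *Spry1* in the Tcf control, and none of the 10 genes was called higher. With the block, *Spred1* was also called lower in the Tcf control, where the replicate numbers pair libraries. In no Cre NPCs the block added *Spry1* and *Etv4*, lower, and *Dusp4*, higher. Without the block, 2 of the 10 were called in no Cre NPCs, where 8.05% of all genes tested were called. With GFP sgRNA it was 2, where 7.51% were called, and in the Tcf control 3, where 14.9% were called. The median log2 fold change of the 10 was -0.47, -0.18 and -0.22, against -0.00243, -0.00472 and 0.00359 over all genes.

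*Etv1* had 2595 and 2856 normalized counts in no Cre NPCs in low CHIR and 771 and 603 in high CHIR, so that 25.2% of the low CHIR mean was left (log2 fold change -1.996, SE 0.15, adjusted p = 2.44e-06). With GFP sgRNA it had 3174 and 3576 in low and 955 and 949 in high CHIR, leaving 28.2% (log2 fold change -1.82, SE 0.15, adjusted p = 8.2e-06). In the Tcf control it had 2038, 2329 and 1937 in low CHIR and 195, 166 and 366 in high CHIR, leaving 11.5% (log2 fold change -3.19, SE 0.25, adjusted p = 8.22e-06), against 10.3% in wild-type NPCs. The fall was thus larger in the wild-type and Tcf control sets than in both controls of the β-catenin table, but the sets were normalized apart and this was not tested. Within each set, all high CHIR libraries were below all low CHIR libraries. Groups did not overlap in 30.8%, 47.1%, 57.8% and 29.2% of all genes tested in wild type, no Cre, GFP sgRNA and Tcf control.

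*Spry4*, which did not pass the test in wild-type NPCs, had 3054 and 2118 normalized counts in no Cre NPCs in low CHIR and 951 and 732 in high CHIR (log2 fold change -1.61, SE 0.24, adjusted p = 0.000887). With GFP sgRNA it had 2171 and 2097 in low and 1197 and 709 in high CHIR (log2 fold change -1.21, SE 0.24, adjusted p = 0.0075), and the 2 high CHIR libraries differed from each other by more than the 2 low CHIR libraries. That call ended without low CHIR replicate 1 (adjusted p = 0.0568) or high CHIR replicate 2 (-0.83, 0.117). In the Tcf control it was closest between replicates, with 2327, 2395 and 2039 counts in low CHIR and 985, 962 and 991 in high CHIR (log2 fold change -1.20, SE 0.12, adjusted p = 3.94e-05). Its mean in high CHIR was 32.5%, 44.7% and 43.4% of low CHIR in the 3 sets.

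*Spry1* had 4728, 3927 and 2151 normalized counts in the Tcf control in low CHIR and 2157, 1639 and 1454 in high CHIR. Low CHIR replicate 3 lay within the high CHIR range, and the fall was called (log2 fold change -0.99, SE 0.24, adjusted p = 0.0165) but not with the 2 groups fitted alone (0.0624) nor without low CHIR replicate 1 (0.0692) or 2 (0.0732) or high CHIR replicate 2 (0.062) or 3 (0.0593). In no Cre NPCs it had 4727 and 3087 in low and 3058 and 2270.0 in high CHIR (-0.54, adjusted p = 0.134), and with GFP sgRNA 2575 and 2826 in low and 2253 and 2324 in high CHIR (-0.24, 0.548). *Spred1* in the Tcf control had 2687, 2712 and 1158 in low CHIR and 1490.0, 1659.5 and 807 in high CHIR. Both doses had their lowest value in replicate 3, and the value of each replicate number was lower in high than in low CHIR. The fit without a block did not call it (log2 fold change -0.69, SE 0.33, adjusted p = 0.192), while a fit blocked on replicate number, by which the Tcf/Lef libraries are paired, did (adjusted p = 0.0159). It was also called without low CHIR replicate 3 (-1.10, 0.0128). In no Cre NPCs *Spred1* had 1757 and 1299 in low and 980.4 and 1055 in high CHIR (-0.57, 0.127) and with GFP sgRNA 996 and 1496 in low and 1109 and 1169.7 in high CHIR (-0.10, 0.828).

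*Dusp4* was higher in every high CHIR library than in every low CHIR library of all 3 control sets, without being called in the fit without a replicate block. The groups did not overlap in 47.1%, 57.8% and 29.2% of all genes tested in no Cre, GFP sgRNA and Tcf control cells. It had 309 and 359.9 normalized counts in low and 766 and 443 in high CHIR in no Cre NPCs (log2 fold change 0.80, SE 0.32, adjusted p = 0.157). With GFP sgRNA it had 262 and 475 in low and 549 and 530.3 in high CHIR (log2 fold change 0.61, SE 0.32, adjusted p = 0.311). In the Tcf control it had 550.4, 543 and 552 in low and 808, 655 and 579 in high CHIR (log2 fold change 0.30, SE 0.23, adjusted p = 0.444). *Etv4* in no Cre NPCs had 2609 and 1511 in low and 1511 and 1275 in high CHIR (-0.52, adjusted p = 0.264), with GFP sgRNA 2195 and 1967 in low and 1450.0 and 1605 in high CHIR (-0.45, 0.366), and in the Tcf control 1828, 1899.8 and 1566 in low and 1529, 1661 and 1484 in high CHIR (-0.18, 0.631). *Etv5*, *Spry2*, *Spred2* and *Dusp6* had log2 fold changes between -0.42 and 0.04 over the 3 sets, with adjusted p of 0.284 or more. *Dusp6*, for example, had 5905, 8927 and 9595 in low CHIR and 6214, 8772 and 10033 in high CHIR in the Tcf control.

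**Figure D2:**
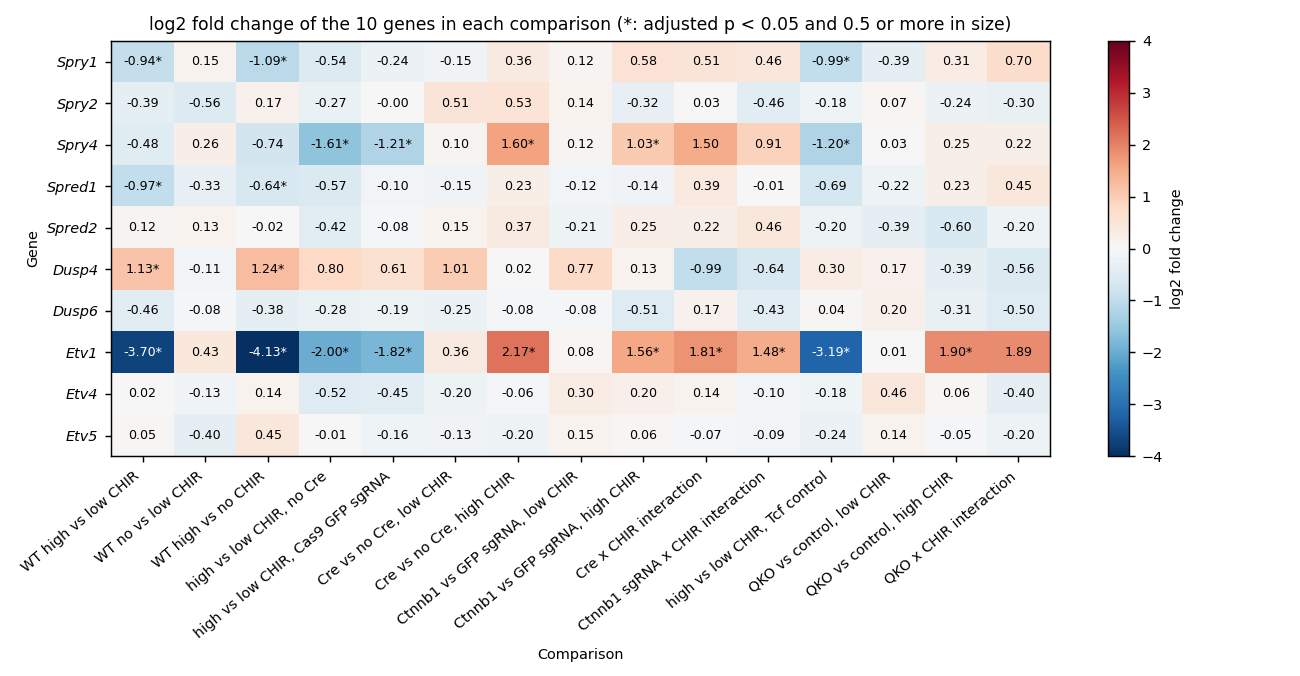
The log2 fold change of each of the 10 genes (rows) in each comparison (columns), where the printed number is the value, blue is lower, red is higher, the color scale ends at 4 in either direction, and an asterisk marks a called gene. *Etv1* passes the test in all comparisons of high with low CHIR in unmodified and control cells and in all 3 removals at high CHIR, while the rows of *Etv4*, *Etv5*, *Spry2*, *Spred2* and *Dusp6* hold no asterisk.

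The next comparisons ask which of these levels need β-catenin. In low CHIR, removal of β-catenin called none of the 10 genes with limma without a replicate block: with Cre 0.328% of all genes tested were called, and with *Ctnnb1* sgRNA 0.0536%. With edgeR and DESeq2 none was called either. In limma with replicate number as a block, *Dusp4* was called higher with Cre (adjusted p = 0.0437). In limma without the block, the lowest unadjusted p with Cre were those of *Dusp4* (0.00796), *Etv1* (0.0323) and *Spry2* (0.0339). With *Ctnnb1* sgRNA the lowest was that of *Dusp4* (0.0326). None of these passed after adjustment over all genes tested. *Dusp4* had 629 and 717 normalized counts with Cre against 309 and 359.9 without (log2 fold change 1.01, SE 0.32, adjusted p = 0.256), and 497 and 732 with *Ctnnb1* sgRNA against 262 and 475 with GFP sgRNA (log2 fold change 0.77, SE 0.32, adjusted p = 1). *Dusp4* did not overlap between removal and control in either, as was the case for 34.3% of all genes tested with Cre and 30.1% with the sgRNA. *Etv1* had 3471 and 3531 with Cre against 2595 and 2856 (0.36, adjusted p = 0.409) and 3644 and 3488 with the sgRNA against 3174 and 3576 (0.08, 1). *Spry2* had 8223 and 7969 with Cre against 5960.0 and 5435 (0.51, 0.415), and 5869 and 7019 against 5004 and 6805 with the sgRNA (0.14, 1).

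In high CHIR, *Etv1* and *Spry4* rose on removal of β-catenin by both methods, and no other gene of the 10 was called in the fit without a replicate block. With Cre 2 of the 10 were called, where 8.65% of all genes tested were, and with *Ctnnb1* sgRNA 2, where 5.09% were. *Etv1* had 3208 and 2953 normalized counts with Cre against 771 and 603 without (log2 fold change 2.17, SE 0.15, adjusted p = 1.41e-06). With *Ctnnb1* sgRNA it had 2661 and 2949.6 against 955 and 949 (log2 fold change 1.56, SE 0.15, adjusted p = 4.33e-05). These levels were close to those of low CHIR: the high CHIR mean was 88% of the low CHIR mean with Cre and 78.7% with the sgRNA. Each high CHIR library lay below each low CHIR library of the same genotype, which was not tested and rests on 2 libraries per group. The order was not particular to *Etv1*. It also held for *Spry2*, *Spred1* and *Dusp4* with Cre. With the sgRNA it held for *Spry2*, *Spry4*, *Dusp6*, *Etv4* and *Etv5*, and *Spry1* and *Spred2* had the opposite order. The share of all genes without overlap was not counted for these comparisons within removed cells. In the other comparisons of 2 groups in the β-catenin table it was 30.1% to 61.3%, so such an order is common with 2 libraries per group.

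*Spry4* had 2779.7 and 2299 normalized counts with Cre in high CHIR against 951 and 732 without (log2 fold change 1.60, SE 0.24, adjusted p = 0.000917). With *Ctnnb1* sgRNA it had 1909 and 1864 against 1197 and 709 (log2 fold change 1.03, SE 0.24, adjusted p = 0.0277). The latter call ended without either library of the *Ctnnb1* sgRNA (adjusted p = 0.125 and 0.173 without replicates 1 and 2) or without GFP sgRNA replicate 2, the lowest library (0.66, 0.312). With Cre the high CHIR mean was 92.7% of the low CHIR mean, and with the sgRNA 81.3%.

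*Spry1* had 3370.3 and 3458 normalized counts with *Ctnnb1* sgRNA in high CHIR against 2253 and 2324 with GFP sgRNA. It did not pass over the whole table without a block (log2 fold change 0.58, SE 0.20, adjusted p = 0.129). It did with the 4 libraries fitted alone (0.0278) and with replicate number as a block (0.0163). *Dusp6* had 7008 and 6591 against 10020.3 and 9339, lower in the knockout (log2 fold change -0.51, SE 0.19, adjusted p = 0.161), and passed likewise (0.0402 and 0.0356). With Cre, *Spry1* had 3568 and 3206 against 3058 and 2270.0 (0.36, adjusted p = 0.355), and *Dusp6* 8989 and 6989 against 9891 and 7085 (-0.08, 0.87), with overlapping groups for *Dusp6*. *Spry2* with Cre (7886 and 5957) was above no Cre (5253 and 4259), while with the sgRNA (5580.4 and 3895) it was below GFP sgRNA (5918 and 5720.2), and neither was called. Groups did not overlap in 47.3% of all genes tested with Cre and 61.3% with the sgRNA. *Dusp4* had 568 and 613 with Cre and 465 and 748 with the sgRNA, overlapping its controls in both. *Spred1*, *Spred2*, *Etv4* and *Etv5* changed by -0.20 to 0.37 on the log2 scale, with adjusted p of 0.454 or more. Endothelial markers moved with both removals: in high CHIR they summed to 970.2 to 1174 with Cre and 110.0 to 123 without, and to 1139.9 to 1548 with *Ctnnb1* sgRNA and 137 to 280.3 with GFP sgRNA. *Plvap* and *Emcn*, the 2 markers tested, were called higher in each, while *Cdh5* had at most 5.41 counts in any library. Their part in the results for the 10 genes was not tested.

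Whether the response to CHIR itself differed after removal was tested as an interaction, the difference between the log2 fold changes of high against low CHIR in removed and control cells. *Etv1* was called in both methods: the interaction was 1.81 with Cre (SE 0.21, adjusted p = 0.000672), where 0.995% of all genes tested were called, and 1.48 with *Ctnnb1* sgRNA (SE 0.21, adjusted p = 0.00592), where 0.518% were. It was 1 of the 10 genes in each. The second did not pass without *Ctnnb1* sgRNA high CHIR replicate 2 (1.40, 0.0541), and the first passed without each of its 8 libraries. For *Spry4* the interaction was 1.498 with Cre (adjusted p = 0.066) and 0.91 with the sgRNA (0.558). The former passed with DESeq2 on the recovered reads (0.00482) and in limma with replicate number as a block (0.00267). Without no Cre low CHIR replicate 2 it was 1.76. For *Dusp4* it was -0.99 (0.585) and -0.64 (0.855), in the direction of a smaller rise with CHIR after removal, and was not called. The other 7 genes had interactions between -0.46 and 0.51 in both methods.

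**Figure D3:**
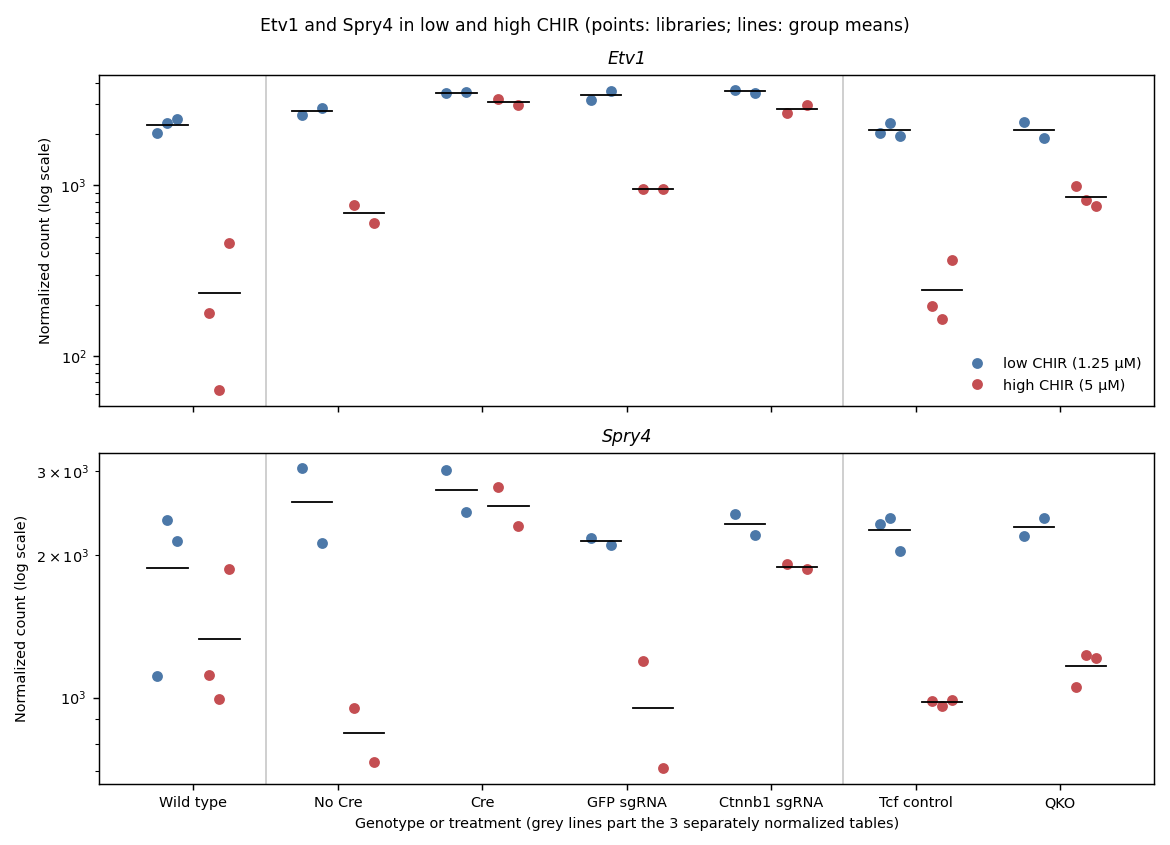
Normalized counts (log scale) of *Etv1* and *Spry4* in low (blue) and high (red) CHIR in each genotype or treatment, with 1 point per library and group means as lines. With Cre or *Ctnnb1* sgRNA the red points of both genes lie near the blue ones, while in QKO *Etv1* in high CHIR (995, 824 and 761) lies between the levels of its controls and *Spry4* (1053, 1229 and 1211) stays low.

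The last comparisons ask the same of the Tcf/Lef factors. In low CHIR none of the 10 genes was called in QKO with limma, edgeR or DESeq2, where 0.0063% of all genes tested were called with limma, and none had an unadjusted p under 0.05. In high CHIR 1 of the 10, *Etv1*, was called, where 2.54% of all genes tested were. *Etv1* had 2341 and 1906 normalized counts in QKO in low CHIR against 2038, 2329 and 1937 in the control (0.01, adjusted p = 0.996). The high CHIR values were 995, 824 and 761 in QKO and 195, 166 and 366 in the control (log2 fold change 1.90, SE 0.25, adjusted p = 0.00224), and this was called without each of the 6 libraries in turn. Every QKO library in high CHIR was above the control and below the low CHIR libraries of both genotypes, with the mean at 40.5% of low CHIR against 11.5% in the control. QKO and control in high CHIR did not overlap in 19.9% of all genes tested.

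As an interaction, the difference in the CHIR response of *Etv1* between QKO and control was 1.89 (SE 0.37, adjusted p = 0.112, limma without a block). In that fit, which ignores the pairs of replicate number, none of the 10 genes was called, where 0.126% of all genes tested were. The lowest unadjusted p of the 10 in that fit was that of *Etv1* (0.000275, limma). With replicate number as a block, the interaction of *Etv1* was 1.95 and passed (adjusted p = 0.040), as it did with DESeq2 (0.000886) and without control high CHIR replicate 3 (2.23, 0.00378), but not with edgeR (0.125).

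*Spry4* in QKO had 2192 and 2389.6 normalized counts in low CHIR and 1053, 1229 and 1211 in high CHIR. In high CHIR all 3 were above the control (985, 962 and 991), a lack of overlap seen in 19.9% of all genes tested. In limma without a replicate block the difference was small and not called (log2 fold change 0.25, SE 0.12, adjusted p = 0.366). Its 95% interval, which ignores the pairs of replicate number, was -0.01 to 0.50. With the block *Spry4* was not called either. For comparison, the intervals on removal of β-catenin, in the separately normalized table, were 1.07 to 2.12 with Cre and 0.51 to 1.56 with *Ctnnb1* sgRNA, and the difference between the tables was not tested. *Spry4* in QKO in high CHIR held 50.8% of its low CHIR mean, against 92.7% with Cre. *Spry1* had 2530.3 and 2674 in low CHIR and 2121, 2080.5 and 2208 in high CHIR, with high CHIR values that overlapped the control (2157, 1639 and 1454; 0.31, adjusted p = 0.612). *Spred1* had 1486, 1723 and 1269 in QKO against 1490.0, 1659.5 and 807 in high CHIR (0.23, 0.798), and *Spred2* 176, 192 and 171 against 313, 407 and 157 (-0.60, 0.449).

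*Etv4* in QKO had 1903 and 3060.1 normalized counts in low CHIR, both above the control (1828, 1899.8 and 1566; 0.46, adjusted p = 0.904), and 1193, 1878 and 1896 in high CHIR against 1529, 1661 and 1484 (0.06, 0.93). In low CHIR the groups did not overlap in 16.4% of all genes tested. *Etv5* had 2171, 2636 and 2823 against 2359, 2471 and 3085 in high CHIR (-0.05, 0.90). *Dusp4* had 393, 510.0 and 677 against 808, 655 and 579 (-0.39, 0.485), *Dusp6* 4816, 7426 and 8081 against 6214, 8772 and 10033 (-0.31, 0.613), and *Spry2* 2177, 2426 and 1569.7 against 1914, 3289 and 2166 (-0.24, 0.685). All of these overlapped between QKO and control in high CHIR. Within the pairs of replicate number, *Dusp6* was lower in QKO in all 3, and with the block it was not called (adjusted p = 0.087). Within the Tcf/Lef table, summed stromal markers were 276 to 7405 in the low CHIR controls, 251 to 3092 in the high CHIR controls and 591 to 7283 in QKO in high CHIR. Among them *Foxd1* had at most 13.9 counts in any library, while *Col1a1* reached 7525. Blood markers reached 2713 in 1 control library in high CHIR against at most 77.8 in QKO. Without that library, replicate 1, the log2 fold change of *Etv1* in QKO in high CHIR was 1.79 (adjusted p = 0.0090). Endothelial markers summed to 353 to 534 in QKO and 176 to 333 in the control in high CHIR (1 of 4 tested called higher, *Plvap*, with *Cdh5* at most 11.3 in any library). Their part in the results was not tested.

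Of the rest of the pathway, the other feedback inhibitors moved in both directions in wild-type NPCs. There 3 of 12 were called higher in high than in low CHIR and 3 lower, where 10.4% of all genes tested were called. The median log2 fold change was 0.00073 against 0.0094 over all genes. The largest were *Dusp5*, a nuclear ERK phosphatase, at -2.40 (adjusted p = 0.000471), *Errfi1*, an inhibitor of Egf receptors, at 2.24 (0.00261), and *Spred3* at 1.88 (0.00128). In no Cre, GFP sgRNA and Tcf control NPCs 3, 4 and 6 were called higher and none lower (limma, 12 tested), with medians of 0.16, 1.02 and 0.50. Of all genes tested, 8.05%, 7.51% and 14.9% were called in these sets. *Dusp2*, an inducible nuclear phosphatase, rose by 1.69, 2.74 and 1.97, and *Errfi1* by 1.41, 1.34 and 2.22. Both are followed through the other comparisons because of these values, a choice made after they were seen. The removals are compared with the same control libraries in high CHIR in which these genes were high, so the choice favors lower values there. In high CHIR the values were as follows: *Dusp2* had log2 fold changes of -1.76 with Cre (adjusted p = 0.0237), -1.65 with *Ctnnb1* sgRNA (0.0488) and -1.95 in QKO (0.0297), and *Errfi1* -0.95 (0.0136), -0.99 (0.0184) and -1.28 (0.0379). Of the 12, 1 was called higher and 3 lower with Cre, 2 lower with the sgRNA and 2 lower in QKO, where 8.65%, 5.09% and 2.54% of all genes tested were called.

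Of 8 other genes known to be induced by ERK, 7 could be tested. In high against low CHIR 3 were called higher in wild-type NPCs (median 1.01), 3 in the Tcf control (median 1.00), 2 in no Cre (median 0.53) and 1 with GFP sgRNA (median 0.54), and 1, *Myc*, lower in no Cre (-1.26, adjusted p = 0.0181). Of all genes tested, 10.4%, 14.9%, 8.05% and 7.51% were called in these sets, in the same order. *Epha4*, a receptor of ephrins, was called in all 4 sets, by 2.54, 3.15, 2.75 and 3.98 in wild type, no Cre, GFP sgRNA and Tcf control. In the removals in high CHIR, 1 was called higher and 1 lower with Cre, 1 higher and 1 lower with *Ctnnb1* sgRNA, and 1 higher in QKO. The shares of all genes tested that were called there were 8.65%, 5.09% and 2.54%. *Epha4* was the gene that fell with Cre (-1.75, adjusted p = 0.00417) and with *Ctnnb1* sgRNA (-1.90, 0.00444), and it was not called in QKO (-1.08, 0.17). The gene that rose was *Myc*, a growth-promoting transcription factor, with Cre (1.43, 0.00768) and with the sgRNA (1.28, 0.0254), and in QKO it was *Ccnd1*, which encodes cyclin D1 (1.53, 0.0285). The paper describes *Myc* as an established target of Wnt signaling, and which signal moved these genes was not tested.

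**Figure D4:**
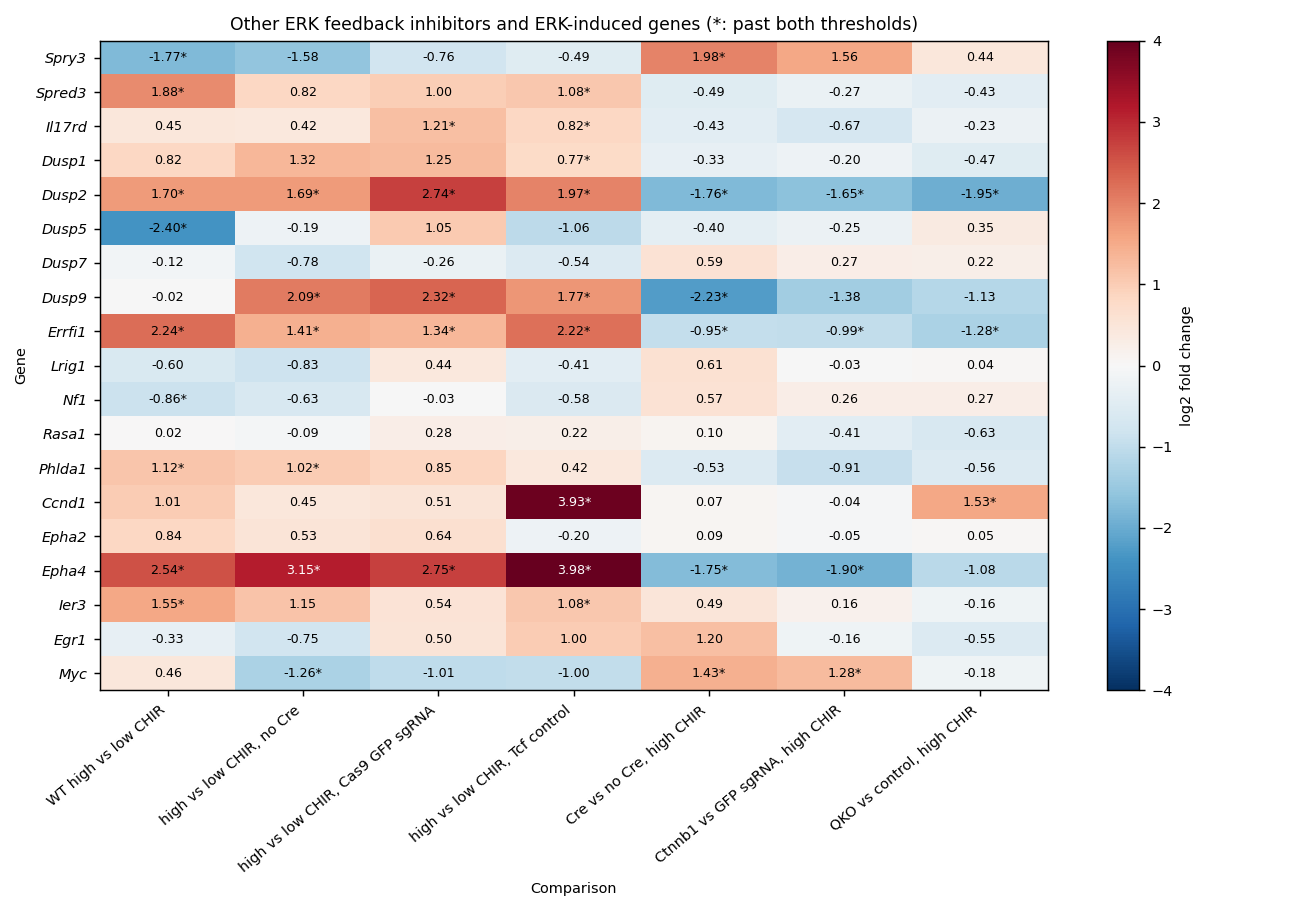
The log2 fold change of 12 other ERK feedback inhibitors (*Spry3* to *Rasa1*) and 7 other ERK-induced genes (*Phlda1* to *Myc*) in 4 comparisons of high with low CHIR and 3 removals in high CHIR, with an asterisk for a called gene. *Dusp2* and *Errfi1* are red and called in the 4 CHIR columns and blue and called in the 3 removal columns, the opposite of the signs of *Etv1*.

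Calls in the pathway's core stand beside the share called of all genes tested. That share was 10.4% in wild type, 8.05% in no Cre, 7.51% with GFP sgRNA and 14.9% in the Tcf control. Of 19 genes of the Ras-ERK cascade 1 was called in wild-type high against low CHIR (*Rps6ka1*, an ERK-activated kinase, -0.81, adjusted p = 0.0212), and in the Tcf control 1 was called higher and 2 lower (the latter *Frs3* at -1.28 and *Gab1* at -1.24). With GFP sgRNA 1 was called higher and none lower (limma). *Gab1*, a docking protein of receptor kinases, also fell in no Cre (-0.90, 0.0322) and rose with Cre in high CHIR (0.98, 0.0185). Among 13 other Ets factors tested, *Elf2* was called lower in wild-type (-0.90), no Cre (-0.84) and Tcf control (-0.68) cells, *Elk3* was called lower in no Cre (-0.83) and GFP sgRNA cells (-1.10), *Elf3* was called higher in the Tcf control (2.39), and none was called in a removal with limma. Of 5 known regulators of Etv genes, 1 was called in any comparison, *Atxn1* in wild-type high against low CHIR (2.43, adjusted p = 0.0246). Of the receptors and ligands, *Fgfr1*, the most abundant of the 5 receptor genes per kilobase of exon in low CHIR, fell in wild-type NPCs (-0.88, adjusted p = 0.0494), as did *Fgfr3* (-1.27, 0.023). The same dose step called *Fgfr2* (1.54, 0.00708) and *Fgfrl1* (1.47, 0.00334) higher with GFP sgRNA, and the median over the 5 receptor genes was -0.45 in wild type, 0.53 in no Cre, 0.91 with GFP sgRNA and -0.0026 in the Tcf control. In wild-type NPCs *Fgf9* fell from low to high CHIR (-2.10, 0.000193) and was also lower without CHIR (-2.45, 0.00107), while *Fgf8* rose (3.17, 0.0143). *Fgf1*, named because of its large changes, was called lower with CHIR in all 4 sets and higher in all 3 removals in high CHIR, the directions of *Etv1*. In the control sets both directions rest on the same high CHIR libraries, where its counts were low. A link between the 2 genes was not tested. *Fgf1* had 368, 642 and 1216 normalized counts in low CHIR and 32.5, 50.3 and 7.48 in high CHIR in wild-type NPCs. In high CHIR it had 3583 and 1699.9 with Cre against 7.36 and 14.5 without, 2246 and 2213 with *Ctnnb1* sgRNA against 16.5 and 0, and 349, 435 and 432 in QKO against 21.4, 61.7 and 17.

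Over all 36 libraries, with each table centered on its own mean, the 3 genes whose log2 levels followed *Etv1* most closely of 14952 tested in all tables were *Zeb1* (Pearson's r = 0.973), a repressor of epithelial genes, *Cped1* (0.970) and *Cftr* (0.968), a chloride channel. These coefficients are descriptions over libraries that share doses and genotypes, and no test was made. *Zeb1* had 837 ± 81.5 normalized counts (SD, n = 3) in wild-type NPCs in low CHIR and 189 ± 103 in high CHIR. Among the 10 genes themselves, the closest pairs over the 36 libraries were *Spry1* with *Spred1* (r = 0.775) and *Spry4* with *Etv1* (0.770), and the most opposed were *Dusp4* and *Etv1* (-0.443). *Etv4* and *Etv5* were closer to each other (0.574) than *Etv1* was to either (0.121 and 0.0452).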

How the data were processed

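RNA-seq libraries were made by the authors from NPCs of E16.5 mouse kidneys, 9 of wild-type cells, 16 of the β-catenin sets and 11 of the Tcf/Lef set. Per the labels and methods, reads were aligned with STAR 2.5.1a1 to a combined GRCm38 and GRCh38 genome, uniquely aligned and unambiguous reads were counted over genes with featureCounts 1.4.6-p52, and counts were divided by DESeq2 size factors. The authors deposited these normalized counts, a depth-scaled signal per gene, in 3 tables made separately. The low values step in whole reads (tolerance 0.1 read), which recovered reads on genes in every library: 13651129 to 76071568 in the wild-type, 14537850 to 27838106 in the β-catenin and 13089780 to 20152719 in the Tcf/Lef table. The 8 deposited comparison tables, which hold the authors' fold changes and p-values, and their 50 columns of library values were not used.

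Log2(normalized count + 1) was fitted with limma 3.58.1 (R 4.3.3) with a variance trend, all libraries of a table sharing the spread, over genes with a mean of at least 10 (17411, 16780 and 15878 genes; all 10 genes passed in each table). P-values were two-sided and adjusted by Benjamini-Hochberg over all genes tested, and 95% intervals are limma's. The design assumed counts or normalized values and the latter test was used. Interactions compare the CHIR response between cells. Alternatives were pseudocounts of 0.5 and 5, no filter, the compared groups alone, TMM rescaling, edgeR 4.0.16 (quasi-likelihood) and DESeq2 1.42.0 on the recovered reads, the replicate number as a block, and each library left out. These alternatives are given for the 10 genes only, and values of other genes are from the reported fit without a block. Scripts were tested on simulated data. In the Tcf/Lef table the numbers pair libraries: residuals of same-numbered libraries correlated at 0.531, 0.341 and 0.630 between control doses and at 0.369, 0.249 and 0.365 between QKO and control in high CHIR, and the comparison tables' headers carry a date shared by same-numbered libraries.

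The 10 genes, the other pathway and marker lists and the tests were chosen with earlier results of these data known. All 10 genes are named; from other lists at most 3 called genes of largest change per comparison are named, and the 3 genes closest to the member of widest range. The values of 1 gene of the Ras-ERK cascade are not reported here. Gene positions are from GENCODE vM21 and promoter sequences from RefSeq on GRCm38.p6.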

Additional observations from a re-analysis of the deposited data

Results flagged for a closer look

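The response of *Etv1* to high CHIR differed between control cells and cells after removal of β-catenin, by both methods of removal. With Cre the difference between the log2 fold changes of high against low CHIR was 1.81 (95% interval 1.35 to 2.27, adjusted p = 0.000672, limma interaction over all genes), where the change was 2.17 for Cre against no Cre in high CHIR and 0.36 in low CHIR. With *Ctnnb1* sgRNA it was 1.48 (95% interval 1.01 to 1.94, adjusted p = 0.00592), with 1.56 in high and 0.08 in low CHIR. Both removed libraries lay above both controls in high CHIR in each method. Groups did not overlap there in 47.3% of all genes tested with Cre and 61.3% with the sgRNA. These rest on 2 libraries per group.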

How the results depend on the processing

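Over 15 comparisons, 22 of the 150 pairs of a gene and a comparison were called, and with every library kept the alternatives called 21 (the compared groups alone) to 31 (the replicate block). Of the 150 pairs, 119 were called neither in the reported fit nor in an alternative with every library kept, and 44 of these changed sign in some alternative. No result with a call reversed. With the compared groups fitted alone, 2 genes were called in wild-type high against low CHIR and 4 for *Ctnnb1* sgRNA in high CHIR. DESeq2 called 2 genes in the interaction of Cre with CHIR and 1 in that of QKO with CHIR. The cause of these shifts was not tested.

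With replicate number as a block, 5 genes were called in no Cre high against low CHIR, 1 for Cre in low CHIR (*Dusp4*, adjusted p = 0.0437), 4 for *Ctnnb1* sgRNA in high CHIR, 2 in the interaction of Cre with CHIR (*Spry4*, 0.00267) and 1 in that of QKO with CHIR. The added genes were *Spry1* (0.0182), *Dusp4* (0.0415) and *Etv4* (0.0354) in no Cre, and *Spry1* (0.0163) and *Dusp6* (0.0356) with the sgRNA. In the β-catenin table same-numbered libraries correlated at 0.196 to 0.491. With 2 libraries a group and no label of a shared origin, whether they are pairs cannot be settled, and the reported fit has no block. In the wild-type table they correlated at -0.0156 to 0.272. In the Tcf/Lef table the block changed no call but those of *Etv1* and *Spred1* given with the results.

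Leaving out each library in turn gave 2 to 4 genes in wild-type high against low, 4 to 6 in high against no CHIR, 2 to 4 in no Cre, 1 to 2 with GFP sgRNA and 2 to 4 in the Tcf control, 1 to 2 for *Ctnnb1* sgRNA in high CHIR, 1 to 2 in the interaction of Cre, 0 to 1 in that of *Ctnnb1* sgRNA and 0 to 1 in that of QKO with CHIR. Without no Cre low CHIR replicate 2, *Spry1* and *Etv4* were also called in no Cre (adjusted p = 0.0221 and 0.0492). In groups of 2 the library left alone is assumed to vary like the other groups. With 2 or 3 libraries a group, differences smaller than the intervals given were not detectable.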
